A study of Mus musculus with 29 samples.

Results

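The 10 genes of T cells and their killing granules were followed across 29 poly(A) RNA libraries of mouse digit tissue, which fall into 10 groups. They were taken by symbol: the CD3 chains Cd3e, Cd3d and Cd3g, the coreceptors Cd4 and Cd8a, the T cell receptor delta constant gene Trdc, the granzymes Gzma and Gzmb, the perforin gene Prf1 and the granule membrane gene Nkg7. They are 10 of 56445 distinct symbols and identifiers in the 2 deposited tables. The time course table held 9 of them among 24411 genes, with Trdc not analysed here, and the table for amputation held all 10 among 55487.

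The tissue was everything beyond the metacarpophalangeal joint of the left hindlimb without the nail, so the libraries mix skin, bone, connective tissue, nerve and blood cells. In the time course, mice had spared nerve injury (SNI), a cut through 2 sciatic branches (common peroneal and tibial), or a sham operation that left the nerve whole, and the digit tip was amputated through the third phalanx 5 days later. Sham digits were sampled at 7 (n = 3), 14 (n = 3) and 21 (n = 2) days after amputation and SNI digits at 7 (n = 3), 14 (n = 3) and 21 (n = 3) days. A second set held SNI digits only, amputated or left whole and sampled at 7 or 14 days with 3 libraries in each group, so all 4 of its groups share the nerve injury. The unamputated digits were grouped by their treatment label, although their time and tissue labels speak of days after amputation and of a regenerate. The labels give no strain, sex or age, and the labels call the samples biological replicates.

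T cells read antigen through a receptor whose signal passes through the CD3 chains, and most carry alpha-beta receptors with CD4 or CD8 as a coreceptor. Skin also holds gamma-delta T cells, whose receptor uses the delta chain, as residents of the epidermis and dermis. Killer cells, which include CD8 T cells and natural killer cells, store granzymes and perforin in granules: perforin opens the membrane of a target cell and granzymes cut proteins inside it. Granzyme genes can also be read in other leukocytes, mast cells among them.

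All 10 genes were scarce in whole digits. Total counts per library ran from 35654192 to 56809440 in the time course and from 31274245 to 43315729 in the amputation set. Of these, Cd3e took 18 to 85 reads per library in the time course and 17 to 61 in the amputation set. Cd8a took 0 to 14 and 2 to 20 reads, and Gzma took 0 to 96 and 0 to 9. A mean of under 10 reads was found in 5 of the 6 time course groups for Gzma and in 5 of 6 for Cd8a, in 4 of the 4 amputation set groups for Gzma and in 3 of 4 for Cd8a. Gzma and Cd8a did not pass the filter on low counts in the amputation set, so 8 members were tested there and 9 in the time course. A count of 0 still allows up to 3 reads, which is 0.067 CPM (reads scaled to library size) for the sham day 7 library without a Gzmb read. This limit covers counting error only.

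On a scale that also divides CPM by exon length (RPKM), the median over the 12 libraries of the amputation set was highest for Nkg7 (0.534), followed by Trdc (0.411), Cd4 (0.396) and Cd3g (0.396). Gzmb stood at 0.356, and Gzma at 0.0909 and Cd8a at 0.0567 were the lowest of the 10. In the time course Nkg7 again led with a median of 0.898 over 17 libraries, and Gzma at 0.0726 and Cd8a at 0.0336 closed the order. By counts in the same library, Cd4 exceeded Cd8a in every library that had a Cd8a read, by a factor of 1.5 in the first sham day 21 library and of 4.55 to 104 in the others. Since macrophages and dendritic cells can carry Cd4, this ratio is not one of T cells alone.

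Some libraries stood apart from the rest. The first sham day 21 library and the second SNI day 7 library had the lowest scaling factors (0.633 and 0.761, against 0.943 to 1.11 in the other time course libraries), and the factors of the amputation set were 0.954 to 1.04. The second SNI day 7 library had a summed level of 15140 CPM over 9 neutrophil genes, against 83.2 and 149 CPM in the other SNI day 7 libraries. Markers of the digit itself (keratins, collagens, bone and cartilage genes) summed to between 25130 and 59300 CPM over all 29 libraries. Where leaving out 1 of these libraries moved the fitted difference of a named gene by over 1.5 times, the value without it is given too.

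**Figure D1:**
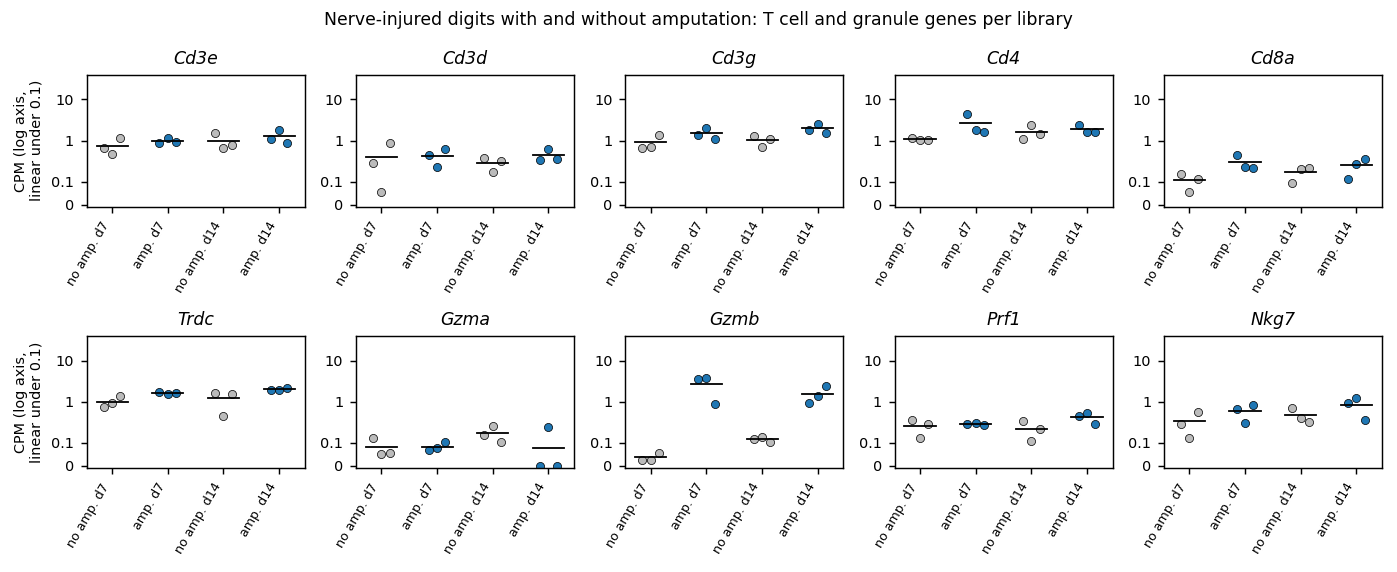
Level of each of the 10 genes in SNI digits without (grey) and with (blue) amputation, in CPM on a log axis that is linear under 0.1. Each point is 1 library and each bar the mean of 3. Gzmb lies between 0.026 and 0.142 CPM in the 6 unamputated libraries and between 0.88 and 3.79 CPM in the 6 amputated ones, while most of the other genes overlap.

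In nerve-injured digits, Gzmb, which codes granzyme B, rose by a large factor with amputation, and Cd3g, a chain of the CD3 complex, rose by a small one. The call of Cd3g lay near the threshold (adjusted p = 0.0467 by edgeR) and was kept in 2 of the 12 fits without 1 library. Averaged over both days, Gzmb was 29.0-fold higher in amputated digits (log2 fold change 4.86 ± 0.47, SE) and Cd3g was 1.78-fold higher (0.83 ± 0.25, SE). The other 6 tested members also had positive fold changes, between 0.35 and 0.83 on the log2 scale, and did not pass the test (a positive sign held for 51.9% of all genes). By edgeR's quasi-likelihood test, 2 of 8 tested members were called higher at an adjusted p under 0.05, where 5.71% of all 17475 genes were called higher. With 1 to 5 reads in each unamputated library, Gzmb passed the filter on low counts only through the amputated groups, where it was high. A positive sign was thus favoured for Gzmb, and the counts of members that include it are a description. With no filter it was called as well by edgeR (adjusted p = 1.78e-06). The median fold change of the 8 was 0.73, beside 0.01 over all genes tested.

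Gzmb was close to absent without amputation. The unamputated libraries held 0.026, 0.027 and 0.0578 CPM at day 7 and 0.123, 0.142 and 0.109 CPM at day 14, from 1 to 5 reads each. The amputated libraries held 3.53, 3.79 and 0.88 CPM at day 7 and 0.911, 1.39 and 2.40 CPM at day 14, from 33 to 157 reads. Every amputated library lay above every unamputated one of either day. Group means were 2.73 ± 1.61 CPM for amputated day 7, 1.57 ± 0.761 for amputated day 14, 0.125 ± 0.0167 for unamputated day 14 and 0.0369 ± 0.0181 for unamputated day 7 (SD, n = 3 each). In that order the 2 amputated groups did not differ beyond their spread.

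At day 7 the fitted difference of Gzmb was 6.11 ± 0.71 on the log2 scale (adjusted p = 0.00149 by edgeR). With the limit of its filter, Gzmb was the only one of 8 tested members called higher, beside 0.601% of all genes. Since the unamputated digits of that day gave 4 Gzmb reads in all, against 339 in the amputated ones, the ratio of the summed counts was 76.9 with an exact 95% interval of 29.8 to 284 for counting error alone. At day 14 the difference was 3.61 ± 0.61 (adjusted p = 0.0151), from 159 against 13 reads, a ratio of 12.0 with an interval of 6.80 to 23.0. Gzmb, with the same limit of its filter, was again the only one of 8 called higher, beside 1.32% of all genes. That call was lost without the third amputated day 14 library (adjusted p = 0.0545) or without any one of the unamputated day 14 libraries (0.0651, 0.0715 and 0.0957), while the difference stayed between 3.17 and 3.87. The effect of amputation on Gzmb was smaller at day 14 than at day 7 by 2.50 ± 1.04 on the log2 scale, a difference that did not pass the test (adjusted p = 0.772). No member was called in that test by edgeR, beside 0% of all genes, and 1092 genes had an unadjusted p under 0.05.

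Within amputated digits, Gzmb differed between day 14 and day 7 by -0.81 ± 0.47 (adjusted p = 0.464; -1.26 to -0.51 without 1 library), and the libraries overlapped. Within unamputated digits it differed by 1.68 ± 0.93 (adjusted p = 1). Of the 8 tested members 0 were called between days, beside 0.607% of all genes in amputated and 0.303% in unamputated digits. There the 3 day 14 libraries lay above the 3 day 7 libraries, which held for 5.59% of all genes.

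The bases before the start of Gzmb are shown with those of Cd3g, the other gene called, and of Gzma, the other granzyme among the 10. They are the 250 bases before the RefSeq start on build GRCm38.p6, 5′ to 3′ on the strand of the gene, at chr14:56262335-56262584 (minus strand), chr9:44980432-44980681 (minus strand) and chr13:113100982-113101231 (minus strand). Capitals mark matches on either strand to TGTGGT (a RUNX core), TGANTCA (AP-1), TGACGTCA (CRE) or AGGAAG (an ETS core), letters of factor families known for work at T cell genes.
Gzmb: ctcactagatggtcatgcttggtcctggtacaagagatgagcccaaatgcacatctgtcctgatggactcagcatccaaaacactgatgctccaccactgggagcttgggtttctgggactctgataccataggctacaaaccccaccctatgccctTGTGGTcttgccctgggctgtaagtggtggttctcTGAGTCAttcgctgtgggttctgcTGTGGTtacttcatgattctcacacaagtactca
Cd3g: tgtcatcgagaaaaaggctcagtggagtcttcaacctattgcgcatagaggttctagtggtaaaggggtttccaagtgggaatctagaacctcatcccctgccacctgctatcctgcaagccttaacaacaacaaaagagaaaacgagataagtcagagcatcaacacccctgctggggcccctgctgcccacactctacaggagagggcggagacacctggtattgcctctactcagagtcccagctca
Gzma: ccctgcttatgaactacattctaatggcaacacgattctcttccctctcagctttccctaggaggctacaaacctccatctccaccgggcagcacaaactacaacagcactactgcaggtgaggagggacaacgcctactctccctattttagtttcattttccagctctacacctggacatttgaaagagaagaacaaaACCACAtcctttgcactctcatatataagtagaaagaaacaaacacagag
The Gzmb stretch held TGTGGT at 93 to 88 and at 34 to 29 bases before the start and TGANTCA at 58 to 52, the Gzma stretch held TGTGGT once, on the other strand at 50 to 45, and the Cd3g stretch held none of the 4 motifs. Of the 8 members with a sequence in the table (Cd4 and Trdc were not matched), TGTGGT was in Gzma, Gzmb, Prf1 and Nkg7, the 4 granule genes, and in 14.05% of all 32851 stretches of this length. AGGAAG was in Cd3d, Cd3e, Nkg7 and Prf1 and in 29.48% of all. TGANTCA was in Gzmb and in 6.75% of all, and TGACGTCA was in 0 of the 8 and in 1.55% of all. The RefSeq start of Gzmb lies 74 bases upstream of its GENCODE M21 start, so the positions depend on the annotation, and a match of letters does not show a bound site.

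The CD3 chains, which carry the signal of every T cell receptor, had smaller fold changes than Gzmb. Cd3g held 0.676, 0.701 and 1.33 CPM without amputation and 1.39, 1.98 and 1.09 CPM with it at day 7. At day 14 it held 1.26, 0.71 and 1.11 CPM without and 1.85, 2.53 and 1.53 CPM with amputation. The groups overlapped at day 7 through the third library of each and did not overlap at day 14. The difference was 0.73 ± 0.35 at day 7 (adjusted p = 0.354; 0.47 to 1.11 without 1 library) and 0.93 ± 0.35 at day 14 (adjusted p = 0.129), and the call rests on the average of both (adjusted p = 0.0467). It held without the third amputated or the third unamputated day 7 library (0.0389 and 0.0198) and was lost without any one of the other 10 libraries, with adjusted p values between 0.0554 and 0.114. Cd3e, with 0.37 ± 0.29 (adjusted p = 0.422), and Cd3d, with 0.35 ± 0.49 (adjusted p = 0.671), were not called. The Cd3e value ran from 0.20 without the second amputated day 14 library to 0.59 without the first unamputated day 14 library. That of Cd3d ran from 0.09 without the second to 0.96 without the third unamputated day 7 library. Cd3e overlaps 2 annotated genes, 1 on each strand, and how the counting used strand is not given in the sources used here.

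Trdc marks gamma-delta T cells by the constant part of their delta chain. It held 0.754, 0.917 and 1.36 CPM without amputation and 1.75, 1.52 and 1.65 CPM with it at day 7, and 1.60, 0.454 and 1.58 CPM against 1.89, 1.96 and 2.14 CPM at day 14. The amputated libraries lay above the unamputated ones on both days. Trdc and, with the limit of its filter, Gzmb were the 2 of 8 tested members for which this held, and it held for 4.29% of all genes. For Trdc the averaged difference was 0.71 ± 0.27 (adjusted p = 0.0972), with 0.70 ± 0.38 at day 7 and 0.72 ± 0.38 at day 14, so it was not called. The day 14 value was 0.33 without the second unamputated library, the one at 0.454 CPM. Trdc also overlaps 2 genes on the opposite strand, Trdv5 and an antisense gene.

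The coreceptors gave no call. Cd4 held 4.51, 1.80 and 1.60 CPM in amputated and 1.14, 1.05 and 1.01 CPM in unamputated digits at day 7, without overlap, and the groups overlapped at day 14. At day 7 the amputated libraries lay above the unamputated ones for 3 of 8 tested members, beside 10.4% of all genes. These were Cd4, Trdc and, with the limit of its filter, Gzmb. At day 14 this held for 3 of 8, beside 15.9% of all genes, namely Cd3g, Trdc and, with that limit, Gzmb. The Cd4 difference was 1.31 ± 0.41 at day 7 (adjusted p = 0.154), 0.20 ± 0.40 at day 14 (adjusted p = 0.798) and 0.75 ± 0.28 averaged (adjusted p = 0.1). Without the first amputated day 7 library the day 7 value was 0.67 and the average 0.43. That library also had the highest summed level of 10 macrophage genes, 578 CPM against 281 and 264 CPM in the other amputated day 7 libraries and 282 to 344 CPM in the unamputated ones of that day, and the part of macrophages in the Cd4 values was not tested. The day 14 value was -0.0545 without the first amputated and -0.0269 without the first unamputated library of that day. The change of the difference between days was -1.11 ± 0.57 (adjusted p = 0.786) and -0.47 without the first amputated day 7 library. Cd8a, which did not pass the filter, had a mean log2 CPM 0.75 higher with amputation, with p = 0.045 in an exact two-sided permutation test within days over 400 arrangements, where 0.005 is the smallest p possible. Without 1 library that p ranged from 0.01 to 0.115, and no adjustment over other genes was made.

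The other granule genes gave no call. Prf1, the pore former, differed by 0.53 ± 0.33 (adjusted p = 0.307), and Nkg7, a membrane protein of the granules, by 0.83 ± 0.40 (adjusted p = 0.193). Gzma had 0 to 8 reads in amputated and 2 to 9 in unamputated digits, and its mean log2 CPM was lower with amputation by an amount that did not pass the exact permutation test (difference -0.57, p = 0.315). Reads of the further granzymes were few: Gzmm had 10 to 30 and Gzmc 3 to 20 reads per library, Gzmd, Gzme, Gzmf and Gzmk had at most 9, and Gzmg and Gzmn had 0 in these 12 libraries. Of these further granzymes Gzmm was the one that passed the filter, and it was not called (adjusted p = 0.893).

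**Figure D2:**
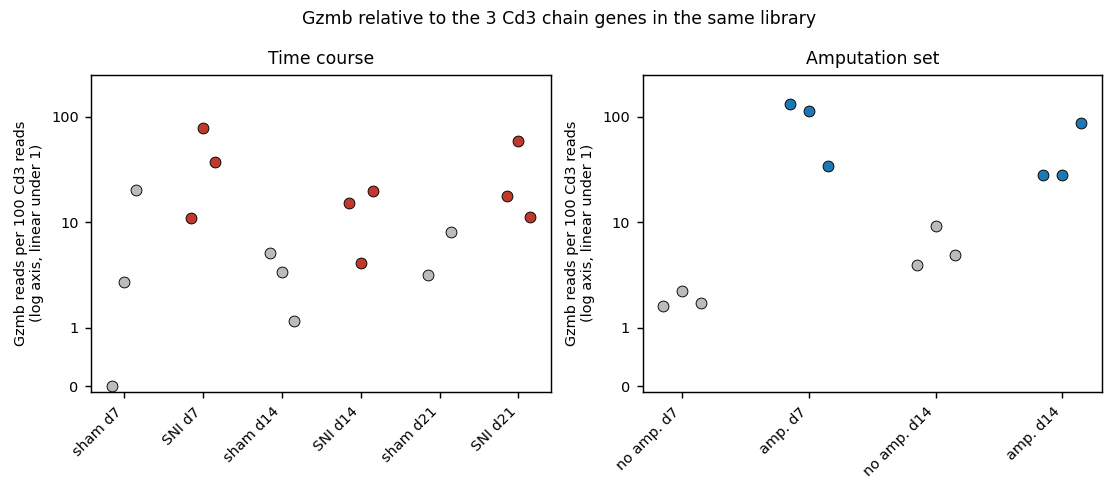
Gzmb reads per 100 reads of Cd3e, Cd3d and Cd3g together, per library, on a log axis that is linear under 1, for the time course (sham grey, SNI red) and the amputation set (unamputated grey, amputated blue). The amputated libraries lie between 27.7 and 131 and the unamputated ones between 1.61 and 9.26.

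Set against the CD3 chains of the same library, Gzmb was also higher with amputation. There were 131, 112 and 33.7 Gzmb reads per 100 CD3 reads at day 7 and 27.9, 27.7 and 87.1 at day 14 in amputated digits. In unamputated digits the numbers were 1.61, 2.22 and 1.72 at day 7 and 3.92, 9.26 and 4.88 at day 14. The lowest amputated library was above the highest unamputated one. In bulk tissue, more cells of a type and more RNA per cell cannot be told apart, and these reads need not come from the same cells.

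**Figure D3:**
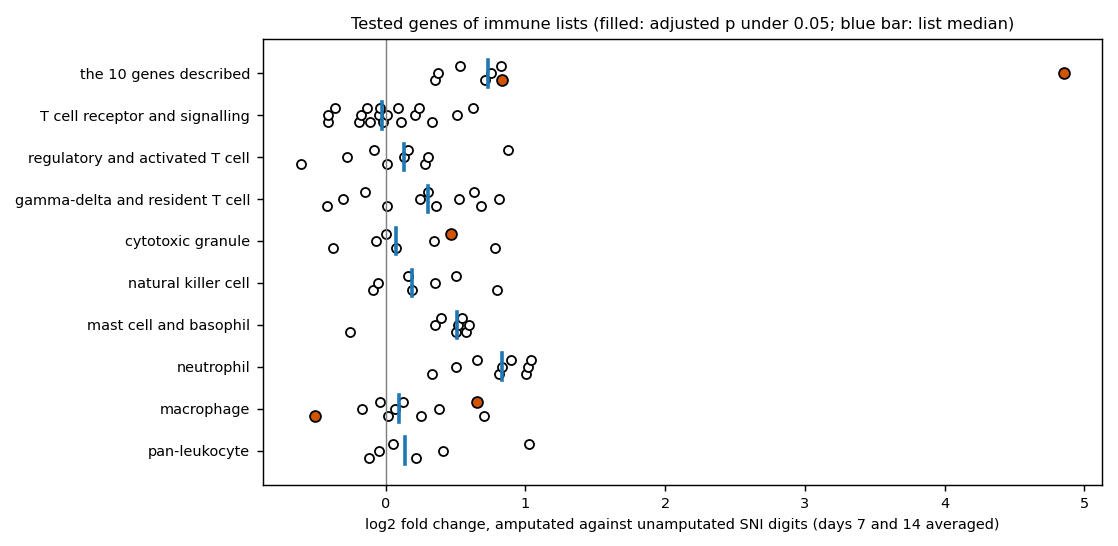
Log2 fold change of amputated against unamputated SNI digits, averaged over days, for the tested genes of 10 lists. Each point is a gene, filled where its adjusted p was under 0.05, and the blue bar is the list median: 0.73 for the genes described here, -0.03 for T cell receptor and signalling genes and 0.83 for neutrophil genes.

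The lists of other T cell genes gave no call by edgeR. Of 18 tested genes of T cell receptor and signalling, 8 had a positive and 10 a negative fold change, 0 were called in either direction and the median was -0.03. Cd247, the CD3 zeta chain, came nearest with 0.63 ± 0.19 (adjusted p = 0.0511), and it passed by voom with quality weights (0.0235) and without the first amputated day 7 library (0.0418). Trbc2, a T cell receptor beta constant gene, stood at -0.19 ± 0.10 (adjusted p = 0.228; -0.12 without the third unamputated day 7 library), and Trac, the alpha constant gene, named here after its values were seen, at -0.02 ± 0.23 (adjusted p = 0.969). Of 11 tested gamma-delta and resident T cell genes 0 were called, with a median of 0.30, and the gamma chain gene Tcrg-C1 stood at 0.68 ± 0.42 (adjusted p = 0.296; 0.42 without the second unamputated day 14 library).

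Among 7 tested further granule genes 1 was called, in the higher direction, beside 5.71% of all genes called higher. It was Serpinb9, an inhibitor of granzyme B, at 0.47 ± 0.12 (adjusted p = 0.0306). Its call was kept in 3 of the 12 fits that left out 1 library, with adjusted p values up to 0.0727. Ctsw, a protease of killer cells, stood at 0.78 ± 0.29 (adjusted p = 0.0977). Of 11 tested genes for chemokines and receptors that guide T cells, 2 were called higher, beside the same 5.71% of all genes. These were Ccl19 at 1.29 ± 0.22 (adjusted p = 0.00616) and Ccl21a at 1.05 ± 0.20 (adjusted p = 0.011), both ligands of the receptor CCR7. Ccl21a has near-identical copies in the genome, so its count is uncertain.

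Markers of other cells that can carry granzymes were read beside Gzmb. Of 7 tested natural killer cell genes 0 were called and the median was 0.19. Ncr1, a defining marker of these cells, had 0 to 5 reads per library. Over 13 natural killer cell genes the summed level was 5.96 to 8.82 CPM in amputated and 4.67 to 7.63 CPM in unamputated libraries. Of 8 tested mast cell and basophil genes 7 had positive fold changes, 0 were called and the median was 0.51. The 10 genes of that list summed to 67.1 to 155 CPM in amputated and 33.6 to 82.4 CPM in unamputated digits at day 7, and to 56.3 to 105 CPM and 74.0 to 101 CPM at day 14. The part of these cells in the Gzmb result was not tested.

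**Figure D4:**
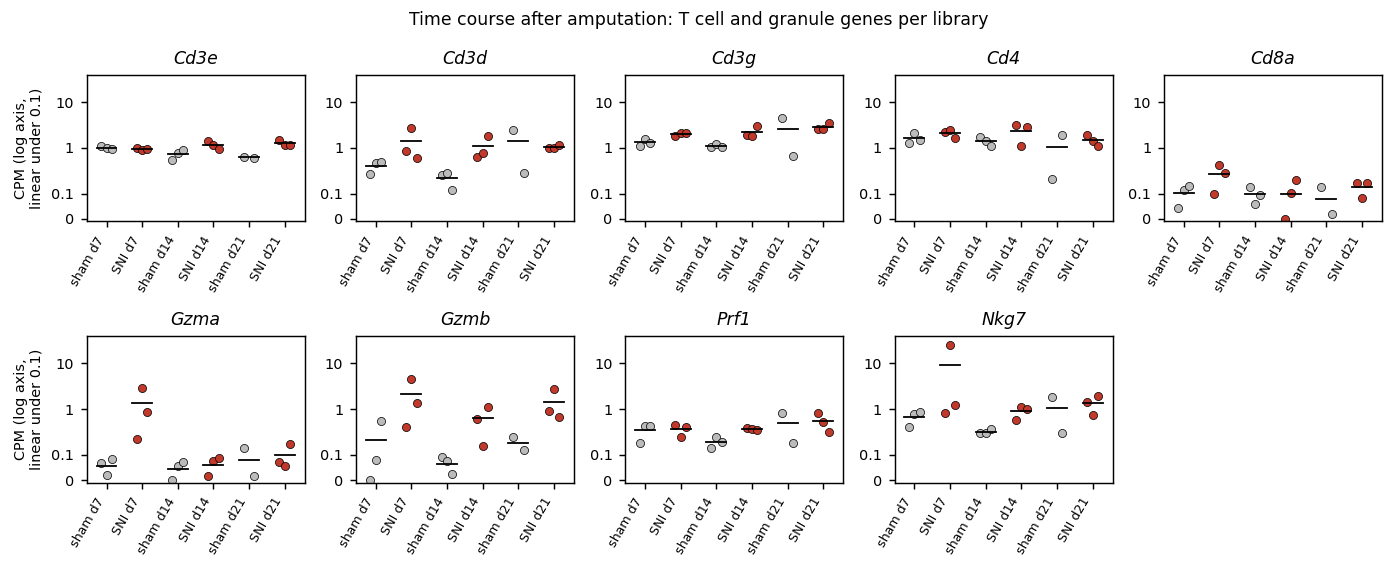
Level of 9 of the genes in the time course after amputation, sham (grey) and SNI (red), in CPM on a log axis that is linear under 0.1. Each point is 1 library and each bar a group mean. Nkg7 reaches 25.5 CPM and Gzma 2.92 CPM in 1 SNI day 7 library, while Cd3e stays between 0.536 and 1.46 CPM in all 17.

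In the time course, no gene of the 16084 tested passed at an adjusted p under 0.05 for SNI against sham, so neither did any of the 9 tested members (0 of 9, beside 0% of all genes). Averaged over the 3 days, the 9 members had positive fold changes, beside 51.5% of all genes, with a median of 0.78 (that of Cd8a) beside 0.01. Gzma and Cd8a passed the filter on low counts only through the SNI day 7 group, and Gzmb only through SNI libraries. A positive sign was thus favoured for these genes, and the counts of members that include them are a description. On all 3 days at once, SNI lay above sham without overlap for 0 of 9, beside 0.137% of all genes. The largest was that of Gzmb at 3.17 ± 0.74 (adjusted p = 0.317), and at an unadjusted p under 0.05 there were 5 of 9 members and 2248 of 16084 genes. DESeq2, run as an alternative, called 163 genes, with Gzmb among them at 3.19 (adjusted p = 0.00158) and no other member. That call of Gzmb has the same limit of its filter. Within single days edgeR also called 0 of 9, while an unadjusted p under 0.05 was found for 4 members and 2191 genes at day 7, 3 and 954 at day 14, and 2 and 354 at day 21.

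**Figure D5:**
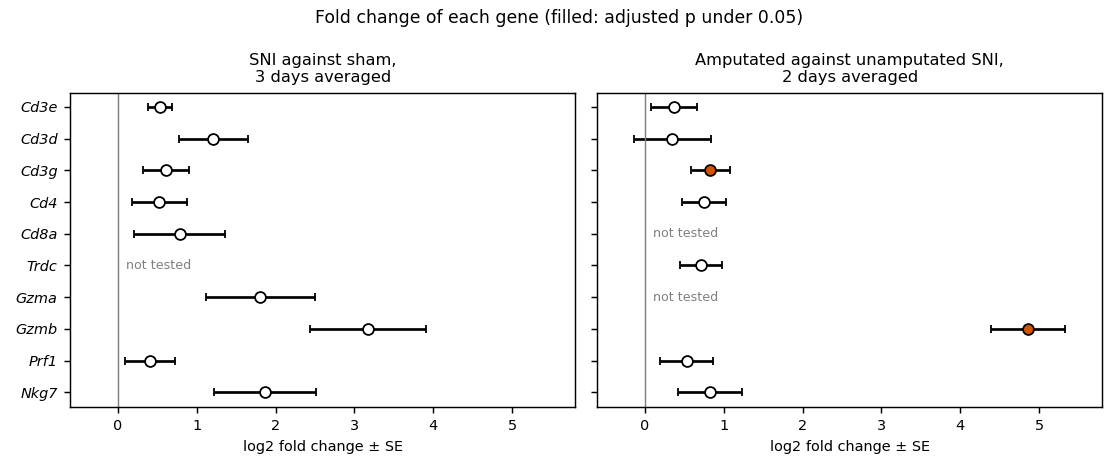
Log2 fold change ± SE of each gene for SNI against sham digits (left, 9 SNI and 8 sham libraries) and amputated against unamputated SNI digits (right, 6 libraries each). Filled points passed at an adjusted p under 0.05 and were Gzmb and Cd3g on the right. Gzmb has the largest value on both sides, 3.17 and 4.86, and passed the filter on low counts only through SNI (left) or amputated (right) libraries.

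Gzmb was low in sham and variable in SNI digits. Sham libraries held 0, 0.0815 and 0.545 CPM at day 7, 0.0932, 0.0763 and 0.0241 CPM at day 14, and 0.244 and 0.126 CPM at day 21. SNI libraries held 0.401, 4.5 and 1.37 CPM at day 7, 0.593, 0.154 and 1.14 CPM at day 14, and 0.90, 2.77 and 0.659 CPM at day 21. Sham libraries had 0 to 7 Gzmb reads, except the third of day 7 with 26. Gzmb thus passed the filter on low counts only through SNI libraries. Its fitted differences in the time course are a description that supports nothing further. The groups overlapped at day 7, through the third sham library, and did not overlap at days 14 and 21. The fitted differences were 3.29 ± 1.15 at day 7 (adjusted p = 0.301), 3.22 ± 1.27 at day 14 (adjusted p = 0.578) and 3.00 ± 1.38 at day 21 (adjusted p = 1). Tested for unequal SNI effects over the 3 days, Gzmb had an adjusted p of 0.992, and 0 of 9 members were called by edgeR, beside 0% of all genes and 588 genes at an unadjusted p under 0.05. The averaged difference was 2.77 without the second SNI day 7 library and 3.92 without the third sham day 7 library. At day 7 it was 2.09 and 5.54 without these.

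Per 100 CD3 reads, Gzmb gave 0 to 20.2 reads in sham digits. SNI digits gave 10.9, 77.9 and 37.3 at day 7, 15.1, 4.11 and 19.6 at day 14, and 17.8, 59.1 and 11.2 at day 21. The ranges of sham and SNI libraries overlapped on this scale at day 7 and at day 14.

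Gzma, which codes granzyme A, had its highest levels in SNI digits at day 7, with 0.22, 2.92 and 0.887 CPM from 11, 96 and 40 reads. Outside that group it had 0 to 7 reads per library, so it passed the filter on low counts only through the SNI day 7 group, and its fitted differences are a description that supports nothing further. Sham day 7 libraries held 0.067, 0.0204 and 0.0839 CPM. The groups did not overlap at day 7. The difference was 4.48 ± 1.01 (adjusted p = 0.301), and the ratio of summed counts (147 against 8) was 20.3 with an exact 95% interval of 10.1 to 48.0 for counting error. Within SNI digits, Gzma stood at -4.47 ± 1.02 at day 14 against day 7 (adjusted p = 0.876) and at -3.69 ± 0.96 at day 21 against day 7 (adjusted p = 1). Without the second SNI day 7 library these were -3.24 and -2.45.

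Nkg7 had 838 reads (25.5 CPM) in the second SNI day 7 library, 31 times its median over the time course, and 0.821 and 1.22 CPM in the other SNI day 7 libraries. Sham day 7 libraries held 0.402, 0.774 and 0.86 CPM. The difference at day 7 was 3.75 ± 1.10 with that library (adjusted p = 0.301) and 0.62 without it. For Gzma the difference was 3.25 without it. DESeq2 called 2 members at day 7, Nkg7 (adjusted p = 0.0359) and Gzma (adjusted p = 0.0194), the latter with the same limit of its filter. DESeq2 was not run without that library. Prf1, which perforates the target, was not high in that library, with 0.461, 0.243 and 0.399 CPM in the 3 SNI day 7 libraries against 0.179, 0.428 and 0.42 CPM in sham ones, and its averaged difference was 0.41 ± 0.32 (adjusted p = 0.522). It was 0.88 without the first sham day 21 library and 0.15 without the second.

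The second SNI day 7 library was also high for markers of other blood cells. It held Ncr1 at 0.395 CPM (13 reads, against 3 and 5 in the other SNI day 7 libraries), the basophil genes Mcpt8 at 8.00 CPM (263 reads, against 8 and 3) and Prss34 at 15.7 CPM (516 reads, against 38 and 1), and Elane, a gene of immature neutrophils, at 456 CPM, against 1.62 and 1.73 CPM. The 12 natural killer cell genes summed to 15.5 CPM there, against 6.33 and 7.42 CPM. The part of these cells in the Gzma and Nkg7 values was not tested.

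Cd3e, the chain usually taken to count T cells, varied little. Sham libraries held 1.07, 0.978 and 0.923 CPM at day 7, 0.536, 0.763 and 0.89 CPM at day 14, and 0.628 and 0.61 CPM at day 21. SNI libraries held 1.00, 0.913 and 0.931 CPM at day 7, 1.40, 1.13 and 0.938 CPM at day 14, and 1.46, 1.15 and 1.15 CPM at day 21. The groups overlapped at day 7 and lay apart, with SNI above sham, at days 14 and 21. The differences were -0.06 ± 0.24 at day 7 (adjusted p = 0.865), 0.67 ± 0.25 at day 14 (adjusted p = 0.578) and 1.02 ± 0.29 at day 21 (adjusted p = 1). The day 7 value turned to 0.00488 without the second SNI day 7 library. The test for unequal effects between days gave an adjusted p of 0.712, and the average was 0.54 ± 0.15 (adjusted p = 0.337).

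Followed within a surgery, sham Cd3e was lower at both later days. It stood at -0.44 ± 0.25 at day 14 against day 7 (-0.26 without the first sham day 14 library) and at -0.68 ± 0.28 at day 21 against day 7 (adjusted p = 0.224), each without overlap of the libraries, which held for 9.39% and 10.7% of all genes. In SNI digits it stood at 0.40 at day 21 against day 7 (adjusted p = 1), again without overlap but in the other direction, which held for 2.75% of all genes. None of these passed the test, beside 0% of all genes in each of these comparisons between days.

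Cd3d and Cd3g were less even across libraries than Cd3e. At day 7 sham libraries held 0.268, 0.469 and 0.482 CPM of Cd3d and SNI libraries 0.841, 2.71 and 0.598 CPM. At day 14 they held 0.256, 0.286 and 0.12 CPM against 0.642, 0.772 and 1.83 CPM. SNI lay above sham without overlap on both days, with differences of 1.74 ± 0.73 and 2.27 ± 0.76 that did not pass the test (adjusted p = 0.301 and 0.578), and the day 7 value was 0.86 without the second SNI library. At day 21 the sham libraries were 2.48 and 0.287 CPM and the SNI ones 0.973, 0.986 and 1.17 CPM. The first sham day 21 library was thus the highest of its day for Cd3d, and also for Cd3g at 4.57 CPM, and the lowest for Cd4 at 0.209 CPM. Its ratio of Cd3d to Cd3e reads was 3.94, followed by 2.97 in the second SNI day 7 library and 1.95 in the third SNI day 14 library, against 1.02 or less in the other 26.

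For Cd3d in sham digits, day 21 against day 7 gave 1.73 ± 0.79 (adjusted p = 0.244) with that library and -0.49 without it. Averaged over days, SNI against sham gave 1.21 ± 0.44 for Cd3d (adjusted p = 0.337) and 1.96 without it. For Cd3g it gave 0.61 ± 0.29 (adjusted p = 0.362), 1.28 without it and 0.33 without the second sham day 21 library. Cd3g stood at 1.03 ± 0.49 at day 14, where sham libraries held 1.03, 1.20 and 1.06 CPM and SNI libraries 1.88, 1.85 and 3.01 CPM. Without overlap between groups, SNI lay above sham for 3 of 9 tested members at day 7, beside 13.7% of all genes. These were Cd3d, Cd3g and, with the limit of its filter, Gzma. At day 14 this held for 6 of 9, beside 11% of all genes. These were the CD3 chains, Prf1, Nkg7 and, with the limit of its filter, Gzmb. At day 21 it held for 2 of 9, beside 4.36% of all genes, namely Cd3e and, with that limit, Gzmb.

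The coreceptors overlapped between sham and SNI digits on each day. Cd4 ran from 0.209 to 2.08 CPM in sham and from 1.08 to 3.18 CPM in SNI libraries, and its averaged difference was 0.53 ± 0.34 (adjusted p = 0.458). It was 0.27 without the first sham day 21 library and 1.31 without the second. Cd8a had 5 to 14 reads in SNI day 7 libraries and 0 to 9 in the other time course libraries. It thus passed the filter on low counts only through the SNI day 7 group, and its fitted difference is a description that supports nothing further. Averaged over days, that difference was 0.78 ± 0.57 (adjusted p = 0.499). Without 1 library, Cd8a passed the filter in 15 of the 17 refits. Over these the difference ran from 0.43 without the third SNI day 14 library to 1.37 without the first sham day 21 library.

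The lists of related genes gave 0 calls each in SNI against sham. Of 16 tested T cell receptor and signalling genes 12 were positive, with a median of 0.51. The 3 with the smallest p were Cd28 at 0.45 ± 0.15, Cd247 at 0.75 ± 0.25 and Lat at 0.78 ± 0.30 (each adjusted p = 0.337), and Cd247 was 1.17 without the first sham day 21 library. Of 8 tested natural killer cell genes 8 were positive, with a median of 0.54, led by Il2rb at 0.77 ± 0.18 (adjusted p = 0.320). Of 10 tested chemokine and receptor genes 10 were positive, with a median of 0.64, led by Cxcl9, a ligand of CXCR3 on T cells, at 1.86 ± 0.65, or 1.15 without the second SNI day 7 library. Positive medians were not limited to T cell lists: pan-leukocyte genes had 1.18, macrophage genes 0.53 and neutrophil genes 2.82.

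Further granzymes were unevenly read in the time course. Gzmd had 157 reads and Gzme 201 reads in the first SNI day 14 library, against at most 24 and 34 reads in any other library, and Gzmc was highest there too with 99 reads. The Gzmd difference averaged over days was 3.82 ± 1.31 (adjusted p = 0.337). Gzmd had 0 reads in 7 libraries, and without 1 library it passed the filter on low counts in 15 of the 17 refits. Gzmc, Gzmd and Gzme are close copies of each other on chromosome 14, so reads may have been split between them. That library held Gzmb at 0.593 CPM and was not among the highest for it.

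The genes whose log2 CPM ran most like that of a member were named as a description over the libraries of each table, which share group structure and depth. For Gzma over 17 libraries these were Retnlg (r = 0.898), Ifitm6 (0.891), Mmp8 (0.889), Fpr1 (0.880) and H2-Q7 (0.879), of which Retnlg, Mmp8 and Fpr1 are known from neutrophils. For Cd3e they were Matn4 (r = 0.749), Slc43a1, Pskh1, Adck3 and Kcng4 in the time course, and Tmed5 (r = 0.910), Sinhcaf, Dcbld1, Hsd17b14 and Ptprcap over the 12 libraries of the amputation set. Ptprcap codes a partner of the leukocyte antigen CD45. For Gzmb, added after its values were seen, they were Arsa (r = 0.971), Fgf5 (0.969), Mmp17 (0.967), Gap43 (0.960) and Ngfr (0.957) in the amputation set, the last 2 known from nerve repair. In the time course they were Ltbr (0.894), Plekho1, Tlr2, Calcrl and Rdh16. No member of the T cell lists was among the 5 nearest to Gzmb in either table.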

How the data were processed

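The authors deposited raw counts of reads per gene and library in 2 tables, by gene symbol for the time course and by Ensembl identifier for the amputation set. Per the submitters' processing notes the genome build was GRCm39. The aligner and counter were not given in the sources used here. Libraries came from a strand-specific kit after poly(A) selection, per the labels' protocols. GENCODE M21 (on GRCm38) gave symbols (55141 of 55487 identifiers, 99.4%) and exon lengths, and RefSeq the promoter sequences (GRCm38.p6), so their coordinates are not on the build of the counts. All columns were matched to samples.

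Each table was fitted apart with a mean per group by edgeR 4.0.16 (R 4.3.3): filterByExpr (minimum count 10, minimum total 15), TMM, robust quasi-likelihood tests and Benjamini-Hochberg adjustment over all 16084 or 17475 genes tested. Genes with an adjusted p under 0.05 were called, and "rose" refers to that. Standard errors are of log2 fold changes. CPM uses the TMM-scaled library size, RPKM divides it by exon length, and like patterns used log2 CPM with a prior count of 2 over genes whose mean CPM was 1 or more, without members and predicted genes. For members removed by the filter, an exact permutation test within days was used. Intervals of count ratios are exact binomial.

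All 10 members are described. From each list of related genes, up to 3 genes were named: those called, else those with the smallest p. The members and lists were chosen with earlier results of these data known. Alternatives were RLE size factors, no filter, DESeq2 1.42.0, limma 3.58.1 (voom with sample quality weights), the compared groups alone, the replicate number as a block, the time course without the libraries with a TMM factor under 0.8, and each library left out in turn. The procedure was tested on simulated data.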

Additional observations from a re-analysis of the deposited data

How the results depend on the processing

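Of the fold changes printed, 667 refits without 1 library kept direction and side of the threshold, 23 fell short of it, 2 passed it and 8 reversed. Under other settings the numbers were 373, 5, 12 and 3. DESeq2 called 1 of 9 members for SNI against sham averaged over days (Gzmb) and 2 at day 7 (Nkg7 and Gzma), where edgeR called 0. The calls of Gzmb and Gzma have the limit of their filter. Voom with quality weights called 3 at day 7, 5 at day 14, 1 for sham day 14 against day 7 and 1 for SNI day 21 against day 7, beside 7749, 8737, 1780 and 1371 of all genes, and the cause was not tested. For amputation averaged over days, 1 of the members was called with no filter on low counts (more genes tested) and 1 with the replicate block, against 2. It was Gzmb in both, and the call of Cd3g was lost (its adjusted p reached 0.0914 under other settings). With the replicate block, 0 were called at day 14 (Gzmb adjusted p = 0.0512), and 1114 and 56 genes overall were called for the average and for day 14, against 2060 and 481. The replicate numbers are not stated to pair animals. Deviations of same-numbered libraries correlated at -0.787 to 0.773 in the time course (18 of 40 pairs over 0.1). In the amputation set they correlated at -0.203 to 0.143 (1 of 18 pairs over 0.1). Libraries closest to their own number were 2 of 17 and 2 of 12. Since the time course correlations ran in both directions, they cannot exclude a pairing. Without 1 library, 0 to 2 members were called for the difference of the SNI effect between days and 0 to 3 for sham day 21 against day 7 (the highest in both without the second sham day 21 library, which leaves 1 library assumed to vary like the other groups), 1 to 2 for amputation averaged and 0 to 1 at day 14. Leaving out the 2 libraries of low TMM factor (under 0.8), Cd3e for SNI at day 7 was 0.0050 and Cd3d for sham day 21 against day 7 was -0.49. Without 1 library these ranged from -0.11 to 0.00488 and from -0.49 to 2.59, Cd4 for amputation at day 14 from -0.0545 to 0.58, and Trac for amputation averaged from -0.0938 to 0.0517, with 0.0153 by voom. Counts of under 10 reads limit Gzma and Cd8a in nearly all groups.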
